A study of Mus musculus with 4 samples.

Results

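A rule for innate-like T cells that carry neither CD4 nor CD8 was applied to 4 single-cell RNA libraries from mouse liver. It was met by 233 of the 26825 cells past the quality limits and 233 of the 4476 T cells. A cell was a member if it held at least 500 UMIs (unique molecular identifiers, each standing for 1 captured transcript), at least 300 detected genes and at most 10% mitochondrial UMIs, at least 1 UMI of Cd3e or Cd3d, no UMI of Cd4, Cd8a, Cd8b1, Foxp3, Ncr1 or Cd79a, and at least 1 UMI of Trdc or Zbtb16. A T cell here was a cell past the same quality limits with a UMI of Cd3e or Cd3d and none of Cd79a. Absence means no UMI, so T cells that express Cd4 or Cd8 at low counts could meet the rule. The 708 CD4 T cells compared below held 1228 Cd4 UMIs in all. Cd8a and Cd8b1 were detected in 72.7 and 95.3% of the 2219 CD8 T cells. How many members are such cells was not tested. The members were chosen by the measured UMIs of these 10 genes, so the levels of those genes are given only as a description. Meeting the rule does not by itself show that a cell is an innate-like T cell. Of the 233 members, 45 also carried several macrophage and monocyte genes, as described below. Among them were 40 cells with Zbtb16 and no Trdc, of which 29 held a single UMI of Cd3e and Cd3d.

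Cells were drawn by fine needle aspiration (FNA), in which a thin needle takes up a small amount of tissue by suction. They came from male C57BL/6J mice that ate the FPC diet from the age of 7 weeks. This diet is rich in fructose, palmitate, cholesterol and trans-fat. P-HC24 had 1.25% cholesterol in that diet for 24 weeks and P-LC24 had 0.05%, I-HC32 had 1.25% for 24 weeks and then 0.05% for 8 weeks, and I-LC32 had 0.05% for all 32 weeks. All 4 groups ate the FPC diet, no chow-fed group was analysed here, and the HC and LC mice were each sampled at both times. Each library pooled 12 biopsies, from 4 lobes of 3 mice, so every condition is 1 library and no difference between conditions was tested.

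T cells carry an antigen receptor built either from an α and a β chain or from a γ and a δ chain. Trdc encodes the constant part of the δ chain, and γδ T cells are found in the liver as recirculating cells and as long-lived tissue cells that make interleukin 17. Zbtb16 encodes PLZF, a transcription factor that drives the rapid, innate-like behaviour of natural killer T (NKT) cells, mucosal-associated invariant T (MAIT) cells and some γδ T cells, and it is also transcribed outside the T lineage. In GRCm39, Trdc lies at chr14:54380308-54386325 on the plus strand and Zbtb16 at chr9:48563141-48748664 on the minus strand. NKT and MAIT cells use an α chain with a nearly fixed sequence, and many innate-like T cells lack both coreceptors.

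The libraries held 7035, 7946, 9828 and 8389 barcodes in the order of P-LC24 and P-HC24 followed by I-LC32 and I-HC32, which is kept below for every set of 4 values, and between 50941106 and 89257239 UMIs. Between 17 and 41 barcode sequences occurred in both libraries of a pair, and none belonged to a member. Doublets were not removed, since the rule does not ask for it. A doublet caller marked 11 of the 233 members. Haemoglobin and other erythroid genes were far higher in I-LC32, where they summed to 27653 CPM (UMIs scaled to the same library total) in the Trdc cells, against 129 to 592 CPM in the other libraries.

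Members numbered 43, 51, 85 and 54. They were 4.37% (95% exact Clopper-Pearson interval 3.18 to 5.85), 5.05% (3.79 to 6.59), 5.64% (4.53 to 6.93) and 5.53% (4.18 to 7.15) of the T cells. All 4 intervals overlapped, and intervals here cover counting error only, not differences between mice. Just outside the rule, 139, 251, 327 and 318 double-negative T cells held no UMI of either Trdc or Zbtb16, and just inside it 10, 9, 16 and 8 members held a single UMI.

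The members formed 3 sets by the 2 genes of the rule. The Trdc cells (Trdc detected, Zbtb16 not) numbered 130, or 24, 27, 57 and 22 per library. The Zbtb16 cells (Zbtb16 detected, Trdc not) numbered 77, or 15, 23, 16 and 23. The remaining 26 cells carried both genes, 4, 1, 12 and 9 per library. Trdc cells were 2.44, 2.68, 3.78 and 2.25% of T cells, with the highest share in I-LC32. With a 5% mitochondrial limit the Trdc cells of P-HC24 fell from 27 to 8, or 1.39% of T cells, and its Zbtb16 cells were 3.31%. Double-positive cells were 0.407, 0.0991, 0.796 and 0.921% of T cells, with 1 cell in P-HC24, and this set is described without a test. Trdc cells held a median of 5 Trdc UMIs, with 21 as the highest and 21 cells at a single UMI, and double-positive cells held medians of 9 Trdc and 2 Zbtb16 UMIs.

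**Figure D1:**
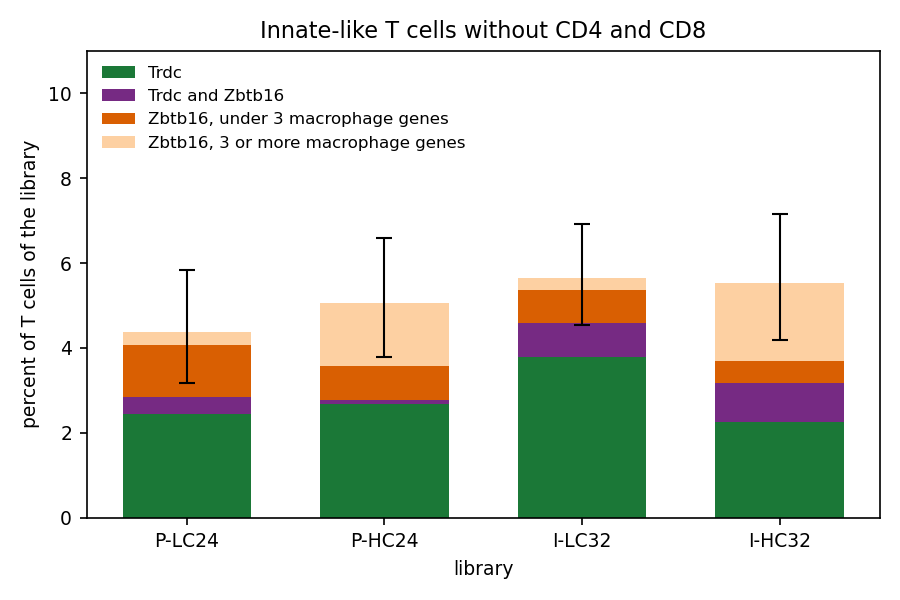
Members as a percentage of the T cells of each library (y axis, percent, against library on the x axis), stacked as Trdc cells, cells with both genes, and Zbtb16 cells without and with at least 3 macrophage genes, with the 95% exact binomial interval of all members as the bar. Trdc cells reached 3.78% in I-LC32 and lay between 2.25 and 2.68% elsewhere, and Zbtb16 cells with macrophage genes took most of the Zbtb16 share in P-HC24 and I-HC32.

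The label was checked against markers of other cell types that the rule did not use, and 40 of the 77 Zbtb16 cells went against it. A cell was called macrophage-marked where it held a UMI of at least 3 of 10 macrophage and monocyte genes, a limit set after the data were seen. In all, 45 members were macrophage-marked: 1 Trdc cell, 4 double-positive cells and 40 Zbtb16 cells. The marked Zbtb16 cells fell 3, 15, 4 and 18 across the libraries, and the unmarked ones 12, 8, 12 and 5, so most Zbtb16 cells of the 2 HC libraries were marked and most of those of the 2 LC libraries were not. B cell genes were found as well. At least 3 of 10 of them were held by 22 of the 130 Trdc cells, 8 of the 26 double-positive cells, 4 of the 37 unmarked Zbtb16 cells and 26 of the 40 marked ones. They summed to 171 to 305 CPM in the Trdc cells, and reached 8387 CPM in the unmarked Zbtb16 cells of I-HC32. In I-LC32 the marked Zbtb16 cells held more of the B cell genes (23086 CPM) than of the macrophage genes, so the name refers to the marking genes only. Neutrophil genes summed to 4939 CPM in the unmarked Zbtb16 cells of P-LC24, where a single cell held all 280 UMIs of S100a9. The part of these other genes in the results on Zbtb16 cells was not tested. Unmarked Zbtb16 cells were 1.22, 0.793, 0.796 and 0.512% of T cells.

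Together the marked Zbtb16 cells held UMIs of all 10 macrophage genes, and 5 of the 40 cells held all 10. These genes summed to 40549, 38382, 7151 and 54146 CPM. The same sum was 50.7, 149, 12.5 and 292 CPM in the unmarked Zbtb16 cells and 21.9, 114, 25.2 and 272 CPM in the Trdc cells, and the marking itself fixed this separation. Lyz2, which encodes the lysozyme of macrophages, and Csf1r, which encodes the receptor for macrophage colony-stimulating factor, belong to this list. The marked cells held a median of 21791 UMIs against 6437 in the unmarked Zbtb16 cells and 7173.5 in the Trdc cells. Their median number of Cd3e and Cd3d UMIs was 1, and 29 of the 40 held exactly 1. The median was 8 in the Trdc cells and in the unmarked Zbtb16 cells, and 6.5 in the double-positive cells. Of the 40 marked cells, 8 held a UMI of Trac, which encodes the constant part of the α chain, 2 held one of a γ constant gene, and 32 held neither.

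Zbtb16 was also frequent in macrophage-marked barcodes with no Cd3 UMI. It was detected in 42.0, 63.3, 34.7 and 79.2% of these 224, 548, 271 and 638 cells (median depth 12736, 18348.5, 13097 and 19424.5 UMIs). In B cells, which should lack it, the share was 0.671, 2.91, 0.960 and 3.91% at median depths of 5920, 6958, 6948 and 8927.5 UMIs, highest in the same 2 HC libraries. Trdc was found in 0.274, 0.170, 0.184 and 0.0790% of the B cells, and in 18.5, 16, 13.3 and 2.22% of the Ncr1-positive NK cells. Zbtb16 was thus detected outside the T cells in every library, and results on Zbtb16 cells are given with and without the marked cells. How a macrophage transcriptome and a Cd3 UMI came to share a barcode was not tested.

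**Figure D2:**
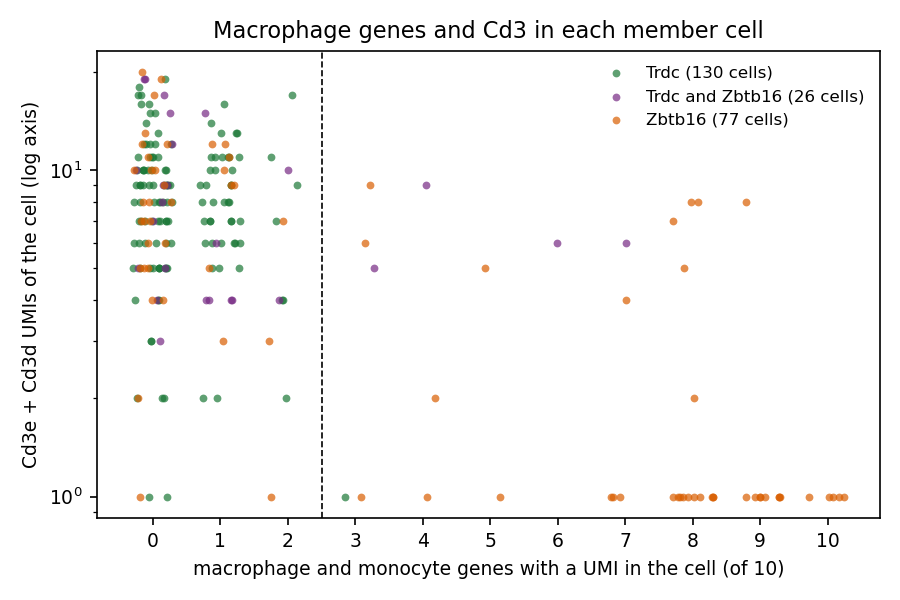
Each point is 1 of the 233 members, with the number of macrophage and monocyte genes detected out of 10 (x axis, shifted sideways slightly to separate points) against its Cd3e and Cd3d UMIs (y axis, log scale). The 40 marked Zbtb16 cells lie to the right of the dashed line, 29 of them at 1 UMI, and 129 of the 130 Trdc cells lie to its left.

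γδ receptor genes were the first check of the Trdc cells. A UMI of a γ constant gene (Trgc1, Trgc2, Trgc3 or Trgc4) was found in 108 of the 130 Trdc cells and in 24 of the 26 double-positive cells. Trac was found in 27 Trdc cells and in 1 double-positive cell. Of the Trdc cells, 94 held a γ constant gene without Trac, 14 held both, 13 held Trac only and 9 neither. Among the 37 unmarked Zbtb16 cells the order was turned round: 25 held Trac and 19 a γ constant gene, with 13 cells holding both.

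The γ constant genes lie together on chromosome 13 and are related in sequence. The last coding exon of 3 of them, Trgc3 not included, is shown from GRCm39 on the coding strand, with capitals where a base differs from Trgc1.
Trgc1 (chr13:19400646-19400785, plus strand): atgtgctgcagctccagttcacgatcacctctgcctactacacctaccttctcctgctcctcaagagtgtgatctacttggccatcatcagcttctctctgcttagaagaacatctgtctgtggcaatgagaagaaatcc
Trgc2 (chr13:19489233-19489372, minus strand): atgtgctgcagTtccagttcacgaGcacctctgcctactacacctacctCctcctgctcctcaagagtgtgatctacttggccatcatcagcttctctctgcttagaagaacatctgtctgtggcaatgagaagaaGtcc
Trgc4 (chr13:19536371-19536510, plus strand): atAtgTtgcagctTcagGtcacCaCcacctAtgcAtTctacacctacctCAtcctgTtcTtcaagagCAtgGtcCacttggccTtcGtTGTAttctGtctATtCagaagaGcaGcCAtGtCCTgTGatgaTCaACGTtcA

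Over these 140 bases Trgc2 differed from Trgc1 at 4 and Trgc4 at 44, an identity of 97.1 and 68.6%. Reads of Trgc1 and Trgc2 from this exon may be hard to separate, so the split between them is uncertain, and the rest of the transcripts was not compared. In the Trdc cells Trgc1 was detected in 55 cells, Trgc2 in 71 and Trgc4 in 75. In the double-positive cells Trgc1 led, in 21 of 26, ahead of Trgc4 in 18 and Trgc2 in 12.

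The variable segments also separated the sets. Trgv2 was the most frequent γ segment in Trdc cells, in 67 of 130, followed by Trgv1 in 20 and Trgv4 in 11, and Trgv7 was found in no member, which allows up to 1.29% of the 233 cells to hold a UMI (3 counts of the total). Here and below such a limit is one on cells with a UMI, not on cells that express the gene. A γ variable segment was seen in 75 Trdc cells, and 23 of these held more than 1, so detection of a segment did not give a single receptor per cell. Trgv6 and the δ segment Trdv4, which are known from interleukin 17-producing γδ T cells, were rare in Trdc cells, with 2 cells each. In double-positive cells Trgv6 was found in 6 of 26 and Trdv4 in 12, and 5 cells held both. Neither was found in an unmarked Zbtb16 cell, which allows up to 8.11% of these cells to hold a UMI (3 counts of 37 cells). Trdv4 was also found in 68 of 464 NK cells, so it does not by itself mark a T cell.

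Over the 188 unmarked members, variable and constant segments that are neighbours in the genome tended to occur together, given here as a description. Trgc1 was detected in 7 of 7 cells with Trgv6 and in 43.1% of the others. Trgc2 was detected in 70.1% of cells with Trgv2 and in 31.7% of the others, and Trgc4 in 79.2% of cells with Trgv1 and in 49.4% of the others. Trgv4 cells showed no such excess of Trgc1, with 43.8 against 45.3%. Trgc1 and Trgc4 were also found more often with Trgv2 (56.3 against 35.6% and 65.5 against 42.6%), so the pairing was not exclusive. The other cells include unmarked Zbtb16 cells without a γ constant gene, which can raise any such excess.

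Trdc cells carried genes of naive and recirculating T cells together with NK receptor genes. Lef1 and Tcf7, which encode transcription factors of naive and memory T cells, were detected in 109 and 99 of the 130 cells, and Ccr7, which encodes a lymph node homing receptor, in 82. Of the 4 genes Tcf7, Ccr7, Lef1 and S1pr1, the last of which encodes the exit receptor of lymphocytes, 93 cells held at least 3. Il7r, which encodes the interleukin 7 receptor, was found in 126 cells and Cd28, which encodes a costimulatory receptor, in 106. The same cells carried Nkg7 in 112, Ccl5 in 99, Klrd1 in 88, Klrc2 in 59 and Klrc1 in 52. These genes belong to the granule, chemokine and CD94/NKG2 receptor programme of NK cells and memory CD8 T cells. Lef1 and Nkg7 shared 96 cells, Lef1 and Ccl5 84, and Lef1 and Klrd1 75. Lef1 shared 8 with Cxcr6, which encodes a chemokine receptor of liver-resident lymphocytes. Such counts depend on how often each gene was detected by itself, and an excess or lack of shared cells was not tested. Ifng, which encodes interferon γ, was found in 21 cells, Gzmb in 9 and Gzma in 3, and Gzmk and Il22 in none, which allows up to 2.31% of the 130 cells to hold a UMI.

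Double-positive cells carried genes of the interleukin 17-producing γδ subset and fewer of the 4 recirculation genes above than Trdc cells. Of 7 type 17 genes (Il17a, Il23r, Il1r1, Scart1, Scart2, Blk and Sox13), at least 3 were detected in 21 of 26 cells, against 5 of 130 Trdc cells. The median number of the 4 recirculation genes was 1.5, against 3 in Trdc cells. Of the 26 cells, 5 held at least 3 of these 4 genes and 4 held none. At least 3 genes of both lists were held by 2 cells. Scart1, which encodes a scavenger receptor of γδ T cells, was found in 19 cells at 366, 0, 1546 and 900 CPM. Il23r, the interleukin 23 receptor, was found in 18 cells at 590, 0, 885 and 518 CPM, and the single cell of P-HC24 held none of either. In Trdc cells Scart1 lay at 0, 0, 87.1 and 37.8 CPM and Il23r at 0, 10.4, 45.8 and 22.7 CPM. Il17a itself was detected in 7 double-positive cells, 1, 0, 3 and 3 per library.

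The double-positive cells also carried Cxcr6 in 21 cells, Il18r1 in 24, Maf in 19, Il1r1 in 17, Ccr2 in 17 and Sox13, a transcription factor of this γδ lineage, in 10. Every Trdv4-positive cell, 12 of 12, held Scart1, and 1 of them held Scart2. Ccr7 was found in 4 cells, Nkg7 in 4 and Cd28 in 2. Thinned to 2000 UMIs per cell, which kept every member, Scart1 was detected in 69.2% of double-positive and 3.08% of Trdc cells (73.1 and 4.62% unthinned), and Cd28 in 7.69 and 45.4% (7.69 and 81.5% unthinned). The 3 sets share libraries and this contrast was not tested, since 1 library gave a single double-positive cell.

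The 37 unmarked Zbtb16 cells were mixed. Of them, 12 held Trac without a γ constant gene, 6 a γ constant gene without Trac, 13 both and 6 neither. In the 12 cells with Trac only, Klrb1c, the NK1.1 receptor of NK and NKT cells, was found in 6, Klra9 in 5, Nkg7 in 8, and Blk in none. In the 6 cells with a γ constant gene only, Cxcr6 was found in all 6, Il23r and Blk in 4 each, Il17a in 2 and Tbx21, the type 1 regulator, in 1. Trav11 or Traj18, the segments of the invariant NKT receptor, were found in 5 of the 37 cells and together in 1. Traj18 was also present in 116 of 2219 CD8 T cells, so a lone segment does not set a cell apart. Across all 37 cells Cxcr6 was found in 21, Ccr2 in 20, Icos in 25, Klrk1 in 26 and Ccr7 in 4.

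**Figure D3:**
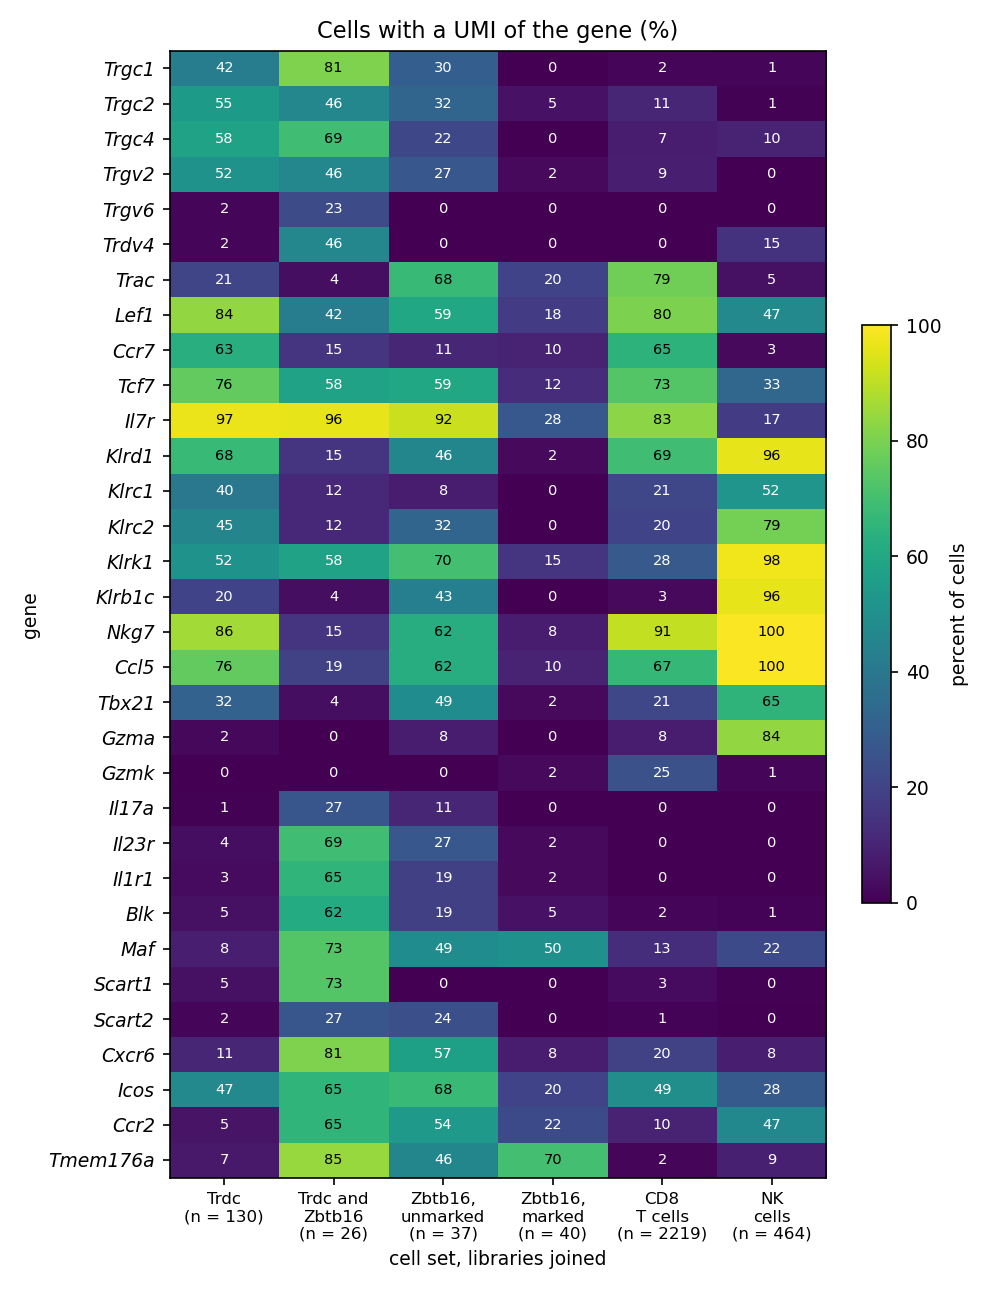
Percentage of cells with at least 1 UMI (colour and number, percent) for selected genes (rows) in the Trdc cells, the cells with both genes, the unmarked and macrophage-marked Zbtb16 cells, CD8 T cells and NK cells (columns), over the 4 libraries joined and not adjusted for depth. Ccr7 reads 63.1% in Trdc cells and 15.4% in double-positive cells, and Scart1 reads 4.62 and 73.1%.

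Trdc cells and Zbtb16 cells of the same libraries were then compared across all genes. UMIs were summed per library and set, giving 8 sums with the double-positive cells left out, and tested with the edgeR quasi-likelihood test with the library as a block and Benjamini-Hochberg (BH) adjustment at 0.05. Here and below, a p over these sums measures the spread between 4 libraries that come from 2 groups of 3 mice sampled at both times, and not between independent mice. Of 4397 genes tested, 401 were higher in Trdc cells (9.12% of the genes) and 866 were lower (19.7%). Leaving out P-HC24 gave 631 calls in all, and leaving out I-HC32 gave 837. Without the macrophage-marked cells, an alternative chosen after the data were seen, 2606 genes were tested, of which 62 were higher (2.38%) and 73 lower (2.8%). Of the 1267 genes called with all cells, 643 could still be tested, 102 of the calls remained, and 48 fold changes had the opposite sign. Lyz2 is 1 of the 10 marking genes, so its fall without the marked cells follows from the marking. It read 8.77, 93.2, 11.5 and 219 CPM in Trdc cells and 14994, 25196, 3102 and 38024 CPM in Zbtb16 cells, and after the marked cells were left out it read 40.6, 106, 12.5 and 146 CPM there.

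Themis and several recirculation genes were higher in Trdc cells with and without the marked cells. Themis, a thymocyte selection gene, lay at 640, 311, 758 and 537 CPM in Trdc cells and at 52.1, 40.7, 100.1 and 69.9 CPM in Zbtb16 cells, with no overlap. Its log2 fold change was 2.94 ± 0.28 (SE derived from the test statistic, edgeR with BH-adjusted p = 3.7e-05). Without the marked cells it was 2.14 ± 0.33 (edgeR, BH-adjusted p = 3.2e-05). Of the 10 genes of the naive and recirculation list that were tested, out of 11, 9 were higher in Trdc cells, and without marked cells 5 of 10 were, with none lower. The list's median log2 fold change without marked cells was 0.87 against 0.01 over all genes tested. Ccr7 at 2.20, Tcf7 at 1.35 and the costimulatory receptor gene Slamf6 at 3.33 were among the genes higher without marked cells. Dpp4 and Fam169b were higher by 3.26 and 4.03 on the same scale. All these are log2 fold changes without marked cells, and Ccr7 was not higher in P-HC24 (305 against 340 CPM).

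Klrc1, which encodes the inhibitory receptor NKG2A, was at 162, 192, 170 and 189 CPM in Trdc cells. In unmarked Zbtb16 cells it was at 50.7 CPM in P-LC24 and at 0 in the other 3 libraries, so the sets did not overlap. It was higher in Trdc cells by 3.42 ± 0.56 on the log2 scale (edgeR, BH-adjusted p = 7.2e-05). Ccl5, a chemokine, was higher by 1.16 without marked cells (6665, 5721, 6355 and 6569 against 4675, 2509, 3009 and 2601 CPM). Klrd1 and Nkg7 had passed with all cells at 1.79 and 2.27, and without marked cells their values were 0.17 ± 0.28 (edgeR, BH-adjusted p = 0.84) and 0.58 ± 0.27 (0.27), which do not pass. Trgc4 was higher in Trdc cells at 2.26, and Trac was lower at -1.99 ± 0.38 (edgeR, BH-adjusted p = 0.00058; 48.2, 57.0, 39.1 and 30.2 against 223, 234, 162 and 170 CPM).

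Several type 17 and tissue genes were lower in Trdc cells. Of 10 type 17 genes tested without marked cells, out of 18, 9 were lower and none higher, and genes near 0 in Trdc cells entered the test through the Zbtb16 cells. Il17a was at 254, 0, 237 and 0 CPM in unmarked Zbtb16 cells and at 0, 0, 2.30 and 0 CPM in Trdc cells. Its difference thus rests on the 2 LC libraries (log2 fold change -6.34 ± 1.16). It also rests on few Zbtb16 cells: 1 with both chains held 25 UMIs, 2 with a γ constant gene only held 16, and 1 with Trac only held 3. Il23r at -3.13, Il1r1 at -4.26, Blk at -3.19 and Maf at -3.75 were lower too, but not in I-HC32, which had 5 unmarked Zbtb16 cells. There all 4 were at 0 in the unmarked Zbtb16 cells, and in Trdc cells Il23r was at 22.7, Il1r1 at 0, Blk at 7.56 and Maf at 22.7 CPM. Cxcr6 lay at 26.3, 15.5, 55.3 and 15.1 CPM in Trdc cells and 142, 361, 911 and 48.6 CPM in unmarked Zbtb16 cells. The sets overlapped only in that I-LC32 of the Trdc cells lay above I-HC32 of the Zbtb16 cells, and the log2 fold change was -3.46 ± 0.39 (edgeR, BH-adjusted p = 1.1e-07). Of the tissue residency list, 5 of 7 tested genes were lower, with a median of -1.06. Other genes lower in Trdc cells were Ccr2 at -4.15, Tmem176a at -3.43, Icos at -1.48, Cd40lg at -5.09, the NK receptor gene Klra9 at -5.95 and S100a4 at -2.35. In I-HC32 Icos was instead higher in Trdc cells (242 against 48.6 CPM), and Klra9 was at 0 in both. Of 9 genes of the type 1 and cytotoxic list tested without marked cells, Ccl5 alone was higher and none lower.

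CD8 T cells, 2219 in all, were compared with the members next. The CD8 cells held at least 1 UMI of Cd8a or Cd8b1 and none of Cd4, Trdc or Zbtb16. With all members, 1246 of 10359 genes were higher (12%) and 316 lower (3.05%). Without marked cells, 347 of 9831 were higher (3.53%) and 230 lower (2.34%). With the Trdc cells alone, also an alternative chosen after the data were seen, 111 of 9732 were higher (1.14%) and 123 lower (1.26%). The results below that name Trdc cells come from this last comparison.

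Several granzyme and checkpoint genes were lower in Trdc cells than in CD8 T cells. Gzmk, which encodes granzyme K, lay at 81.8, 51.1, 81.4 and 183 CPM in CD8 T cells, and no UMI was found in the 130 Trdc cells. With a floor of 3 counts over the group, it was at least 28.7-fold lower in Trdc cells (edgeR, BH-adjusted p = 9.3e-10). Gzma, Gzmb and Ccl4 were lower by -3.17, -2.34 and -3.24 on the log2 scale, although Gzma was higher in Trdc cells of I-HC32 (68.0 against 29.4 CPM). Of 7 checkpoint and exhaustion genes tested, 4 were lower and none higher. Genes near 0 in Trdc cells, as Gzmk was, entered the test through the CD8 T cells. Ctla4 lay at 30.7, 62.1, 20.6 and 37.8 CPM in Trdc cells against 117, 78.3, 140 and 216 CPM in CD8 T cells, with no overlap (log2 fold change -1.98 ± 0.26). Tox, which encodes a factor of exhausted and memory T cells, was lower by -1.32 ± 0.14 (259, 109, 163 and 212 against 554, 172, 493 and 570 CPM), where P-HC24 was the lowest library of both sets.

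Inhibitory and activating NK receptors were higher in Trdc cells than in CD8 T cells. Klrc1 was at 162, 192, 170 and 189 CPM against 42.8, 46.1, 80.8 and 62.9 CPM, without overlap, for a log2 fold change of 1.53 ± 0.18 (edgeR, BH-adjusted p = 2.6e-07). Klrc2, which encodes the activating receptor NKG2C, was at 215, 192, 197 and 113 CPM against 45.3, 30.9, 87.7 and 64.9 CPM, also without overlap (1.66 ± 0.20; edgeR, BH-adjusted p = 1.4e-06). Klrk1, the NKG2D gene, was higher by 1.15 ± 0.15, and Klrb1c by 3.48 ± 0.35. Of 13 NK receptor genes tested, 6 were higher and none lower, with a median of 0.78 against -0.04 over all genes. Genes near 0 in the CD8 T cells could enter the test through the Trdc cells, which tilts this count and median towards higher levels. With all members neither Klrc1 (0.32) nor Klrc2 (0.69) passed.

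Cytokine receptors moved the same way in Trdc cells, with 6 of 12 tested genes higher and none lower, a count with the same limit. Il12rb2, a chain of the interleukin 12 receptor, lay at 215, 316, 215 and 249 CPM against 57.6, 64.5, 79.2 and 96.3 CPM, without overlap (log2 fold change 1.68 ± 0.16). Il2rb, shared by the interleukin 2 and 15 receptors, was higher by 0.72 ± 0.12 (443, 368, 376 and 333 against 227, 188, 224 and 255 CPM). Fcer1g, an adaptor of NK and Fc receptors, was higher by 1.95 ± 0.22.

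Much of the programme of the CD8 T cells was not found to differ. Ccl5 differed by -0.16 ± 0.10, Ccr7 by -0.18 ± 0.12, Klrd1 by 0.17 ± 0.12 and Nkg7 by -0.37 ± 0.12, and none passed the test in Trdc cells, which does not show that the levels are equal. Of 11 naive and recirculation genes, 1 was higher and 1 lower. T cell receptor signalling was lower at 3 of 15 genes, among them Lat at -0.99 and Cd5 at -1.03. Of 10 cell cycle genes 5 were lower, with a median of -2.44. Several were rare in CD8 T cells as well (Mki67 in 2.84% and Cdk1 in 1.53% of the cells). Genes near 0 in Trdc cells entered the test through the CD8 T cells, which tilts this count towards lower levels.

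Receptor chain genes differed in both directions. Trgc1 lay at 96.5, 124, 89.4 and 121 CPM in Trdc cells and at 1.44, 2.88, 3.94 and 3.22 CPM in CD8 T cells (log2 fold change 5.12 ± 0.34), and Trgc4 at 3.50 ± 0.27 and Trgc2 at 2.36 ± 0.25 were also higher. CD8 T cells carried Trgc2 in 238 of 2219 cells and Trgc4 in 165, against 3 and 46 of 464 NK cells. Trac was lower in Trdc cells at 48.2, 57.0, 38.9 and 30.2 CPM against 274, 218, 297 and 245 CPM (-2.66 ± 0.19), and Trbc2 at -0.57 ± 0.11. Gm44174, a gene with no assigned function, was lower at -4.21 ± 0.32.

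**Figure D4:**
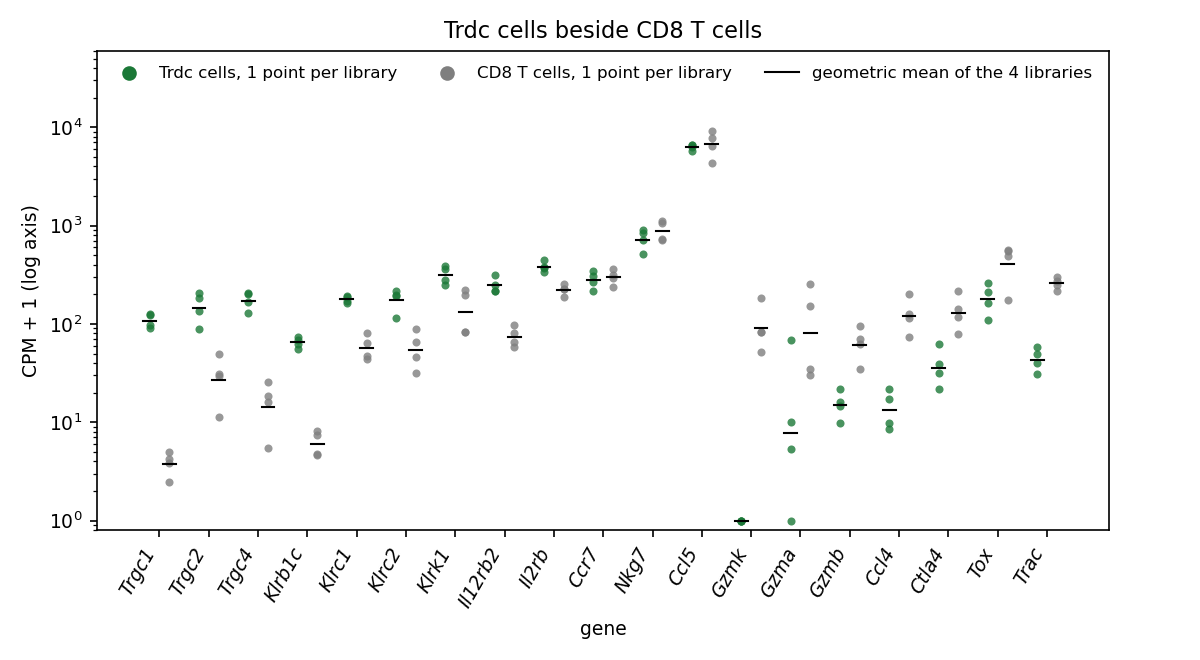
Level of selected genes per library (y axis, CPM of summed UMIs plus 1, on a log scale) in Trdc cells and CD8 T cells, with 1 point per library and set and a bar at the geometric mean of the 4 libraries. Klrc1, Klrc2 and Il12rb2 are higher and Trac and Ctla4 lower in the Trdc cells, with no overlap of the 4 libraries, while Ccl5 overlaps.

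Type 17 genes of the members lay mostly in cells other than the Trdc cells. Without marked cells, 15 of the 18 type 17 genes were tested and were higher in members than in CD8 T cells, and genes near 0 in the CD8 T cells entered the test through the members. Il17a, at 145, 0, 77.9 and 22.6 CPM in unmarked members, had no UMI in the CD8 T cells and was at least 463-fold higher. Il1r1 was higher by 8.20 ± 0.54. Among Trdc cells alone, 3 of 9 type 17 genes tested were higher and 1 lower. Il23r remained higher there, at 0, 10.4, 45.8 and 22.7 CPM against at most 0.180 CPM, from 25 UMIs in 5 cells.

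CD4 T cells, 708 in all, had lower levels of most of the NK receptor genes tested than the Trdc cells. With all members, 1040 of 8096 genes were higher (12.8%) and 384 lower (4.74%), and with Trdc cells alone 294 of 6985 were higher (4.21%) and 248 lower (3.55%). Of 10 NK receptor genes tested in Trdc cells, 9 were higher and none lower. Of 15 type 1 and cytotoxic genes 9 were higher and 1 lower. Genes near 0 in the CD4 T cells entered the test through the Trdc cells, which tilts these counts towards higher levels. Klrc1 had 3 UMIs in all CD4 T cells and was higher in Trdc cells by 7.84 ± 0.40. Ccl5 lay at 6665, 5721, 6332 and 6569 CPM against 951, 1026, 1916 and 1275 CPM, without overlap (2.34 ± 0.10; edgeR, BH-adjusted p = 3.3e-16). Ly6c2, a surface marker of memory CD8 T cells and monocytes, was higher by 4.64 ± 0.23, and Tbx21 by 1.56 ± 0.27. Cd40lg, the ligand for B cell help, was lower in Trdc cells at -4.41 ± 0.40, as were Maf at -2.66 ± 0.31, Ctla4 at -2.26 ± 0.26 and Cd28 at -0.48 ± 0.12.

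NK cells, 464 cells with Ncr1 and no Cd3e or Cd3d UMI, had higher levels of NK receptor genes than Trdc cells. With all members, 1026 of 8187 genes were higher (12.5%) and 557 lower (6.8%), and with Trdc cells alone 643 of 5965 were higher (10.8%) and 668 lower (11.2%). Several NK receptor genes had no UMI in Trdc cells and entered the test through the NK cells, so no count over the list is given. Klrc1 was at 162, 192, 170 and 189 against 322, 281, 251 and 415 CPM (-0.51 ± 0.16, edgeR with BH-adjusted p = 0.027), and Klrc2 differed by -0.76 ± 0.17. Klrd1 was at -1.52 ± 0.13 and Klrb1c at -3.38 ± 0.16. Klra4 and Klra8, which encode Ly49 receptors, had no UMI in Trdc cells and were at least 268-fold and 246-fold lower.

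Gzma and Prf1 were far lower in Trdc cells. Gzma was at 4.38, 0, 9.16 and 68.0 CPM against 7136, 8560, 6277 and 5116 CPM (log2 fold change -8.54 ± 0.33), Prf1, which encodes perforin, was at -3.89 ± 0.22, and Tyrobp, the adaptor of many activating NK receptors, was at -5.67 ± 0.21. T cell genes went the other way, with Cd3g at 6.12 ± 0.34, Themis at 9.62 ± 0.32 and Il7r at 3.31 ± 0.17, although CD3 also defined the NK cells. Ccr7 was higher by 5.63 ± 0.25 and Tcf7 by 1.89 ± 0.19, as were 8 of 10 naive and recirculation genes tested, against 10.8% of all genes. Genes near 0 in the NK cells, as Ccr7 was with a UMI in 12 of 464, could enter the test through the Trdc cells. This tilts the count towards higher levels.

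Between diets, the 2 ratios were Prog (P-HC24 over P-LC24, cholesterol level at 24 weeks) and Int (I-HC32 over I-LC32, after the cholesterol was lowered). With 1 library a condition, a gene was counted where its CPM ratio passed 2-fold with at least 100 UMIs over both libraries, as a description of those libraries. In all members 137 of 1651 genes were past 2-fold higher in Prog (8.3%) and 120 lower (7.27%), or 175 and 83 after TMM scaling. In Int 314 of 2244 were higher (14%) and 245 lower (10.9%), or 356 and 178 after TMM scaling. The median log2 ratio over all genes counted was -0.08 in Prog and -0.18 in Int before that scaling, and 0.05 and -0.03 after it. Without marked cells 6 of 805 genes were past the fold upwards and 43 downwards in Prog (6.09% in all). In Int 11 of 1283 were past it upwards and 23 downwards (2.65% in all). Marked members were 4, 15, 6 and 20 per library, and the highest Prog ratios were those of antigen presentation and macrophage genes (Cd74 at 1395 against 38.4 CPM and Vsig4 at 360 against 6.40 CPM). A single cell held 412 of the 826 Cd74 UMIs of P-HC24 (49.9%), and the highest cell for H2-Ab1 held 43.8% of its UMIs there.

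Trdc cells alone showed few such genes. In Prog 8 of 499 genes were past 2-fold higher (1.6%) and 17 lower (3.41%), and in Int 2 of 756 were higher (0.265%) and 18 lower (2.38%). The highest Prog ratios were those of S100a6, a calcium-binding protein of activated cells, at 2.98 (exact 95% interval 2.08 to 4.33; 575 against 193 CPM), and Vim, which encodes the filament protein vimentin, at 2.97 (2.23 to 3.99; 885 against 298 CPM). S100a6 was found in 11 of 27 cells of P-HC24 and 13 of 24 of P-LC24, and a single cell held 32.4% of its UMIs in P-HC24. Vim was found in 24 and 16 cells, and its highest cell held 19.3 and 16.2% of the UMIs. Actg1 at 2.21, Tagln2 at 2.20 and S100a10 at 2.14 were also past 2-fold. The lowest ratio was that of Sidt1, which encodes an RNA transporter, at 0.278 (0.205 to 0.373; 57 against 242 UMIs), followed by Esyt2 at 0.337, Peli1 at 0.386 and Fgf13 at 0.386. The median mitochondrial share of Trdc cells was 5.56% in P-HC24 and 3.73% in P-LC24, and its part in these ratios was not tested.

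In Int, Adk, which encodes adenosine kinase, was at 2.36 (1.66 to 3.35) and Fam107b at 2.06, and Adk had also been at 2.30 (1.53 to 3.50) in Prog. Outside the haemoglobin genes, which were high in I-LC32, the lowest was S100a4 at 0.259 (0.109 to 0.529), where a single cell held 54.9% of the I-LC32 UMIs. Il18r1, a chain of the interleukin 18 receptor, was at 0.363 (0.216 to 0.577), from 20 against 182 UMIs. Vim was at 1134 against 690 CPM in Int, a log2 ratio of 0.72 with an interval of 0.43 to 1.00, so its direction was the same in both ratios, while that of S100a6 was not (1.57 and -0.87). The log2 ratio of Ccl5 was -0.22 in Prog and 0.05 in Int, and those of Nkg7 were 0.82 and 0.25. Themis was lower in both, at -1.04 and -0.50.

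**Figure D5:**
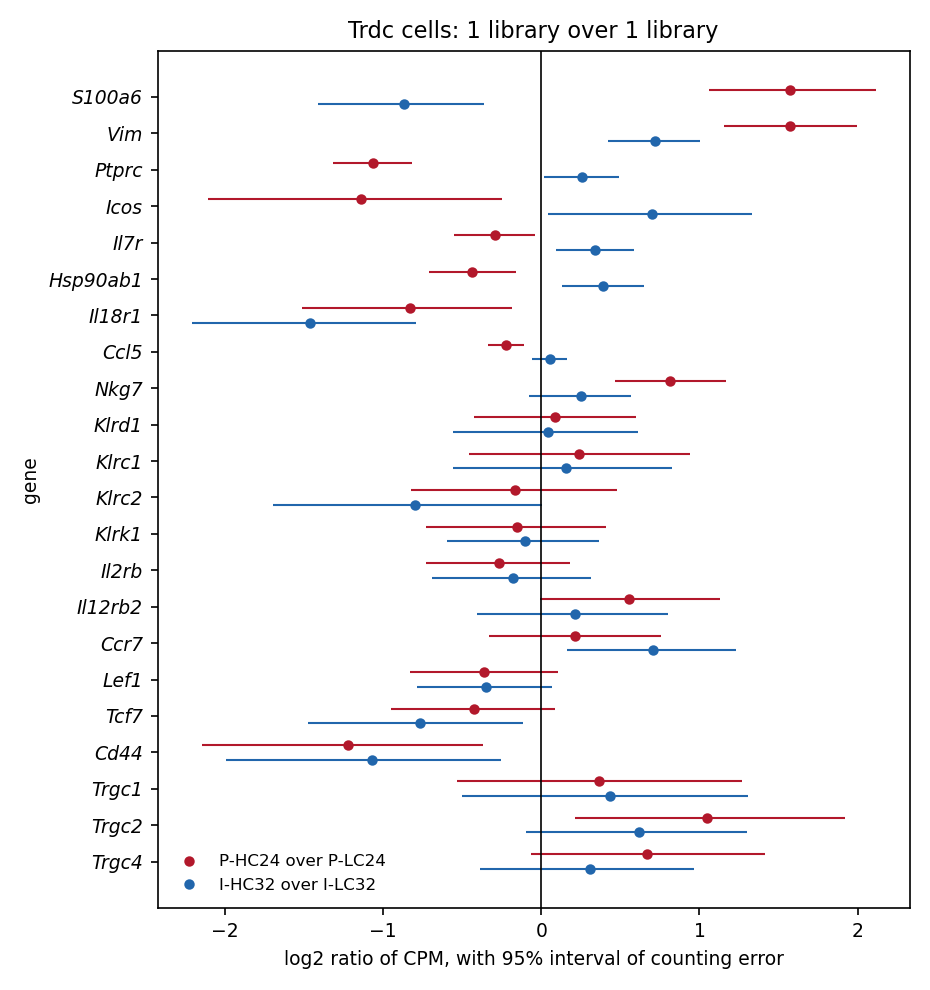
Log2 ratio of CPM in Trdc cells for Prog and Int (x axis, log2 ratio with exact 95% intervals) for selected genes (y axis). The intervals cover counting error in 1 library per condition. S100a6 lies at 1.57 in Prog and -0.87 in Int, and Vim at 1.57 and 0.72.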

How the data were processed

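Liver cells of 4 pooled FNA samples were profiled with 10x Chromium 3′ v3.1, and the files hold UMI counts by barcode that the authors deposited without normalization. Cell Ranger 9.0.1, Seurat 5.3 and GRCm39 come from the submitters' processing notes. The members and gene lists were chosen with earlier results of these data known. Cells were gated on deposited counts, UMIs were summed per library and set, and the sums were tested with edgeR 4.0.16 (R 4.3.3; TMM, filterByExpr, trended dispersion, quasi-likelihood, library block), with DESeq2 1.42.0 as an alternative and simulated counts as a test. Each SE was back-calculated as the absolute log2 fold change over the square root of the quasi-likelihood F statistic, and is not an estimate given by edgeR itself. Gate genes were left out of calls. Conditions have 1 library each and were compared by CPM ratios with exact Poisson intervals. Genes named were those of the lists, the 10 highest and 10 lowest fold changes (mean CPM of at least 50, same direction in 4 libraries) and the 8 highest and 8 lowest ratios. Any other gene was picked with its values in view. Doublets were ranked with scanpy 1.11.5 (0.8% per 1000 cells) and thinning used 2000 UMIs. Counting error limits all shares.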

Additional observations from a re-analysis of the deposited data

Results flagged for a closer look

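In Trdc cells, 5 of the listed genes with the same minimum of UMIs as below had counting intervals on opposite sides of 0 in the diet ratios at 24 and 32 weeks. The log2 ratios (Prog, then Int) were 1.57 and -0.87 for S100a6, -1.06 and 0.26 for Ptprc, -1.14 and 0.70 for Icos, -0.29 and 0.34 for Il7r, and -0.44 and 0.39 for Hsp90ab1. In all members, 7 genes did so among the listed genes with at least 3 UMIs in each library and 20 in each pair. These were Cd74 (5.18 and -1.87), H2-Ab1 (5.19 and -2.05), Id3 (2.94 and -2.41), Ccr2 (0.72 and -2.42), S100a4 (0.89 and -0.44), Tmem176a (0.58 and -0.90) and Rgs1 (-0.88 and 2.19), where the number of macrophage-marked cells also differed between the libraries (4, 15, 6 and 20). Without marked cells the Int ratio of Cd74 was instead 4.88, from 227 against 21 UMIs, with 91.6% of the I-HC32 UMIs in a single cell. S100a4 was then at -0.05 in Prog (interval -0.45 to 0.34) and -0.41 in Int, and Tmem176a was at -0.52 in Int. The directions in all members thus depended in part on which cells entered. In all members, the highest cell for each gene held 51.2% of the Cd74, 56.8% of the H2-Ab1 and 57.1% of the Id3 UMIs of I-LC32. For Cd74 and H2-Ab1 the highest cell held 49.9 and 43.8% in P-HC24, and 68.0 and 68.6% in I-HC32. Whether the highest cell was the same for these genes was not examined. With 1 library per condition the difference between the ratios was not tested. The counts of 5 and 7 genes were not set against a share over all genes, so they only describe these libraries. Outside the quality limits, 2, 1, 1 and 2 barcodes in the order of P-LC24 and P-HC24 followed by I-LC32 and I-HC32 met the gene conditions of the rule, and none of them held a Trdc UMI.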

How the results depend on the processing

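No paired analysis between conditions was possible because each condition is 1 library and the replicate numbers only name samples. The edgeR comparisons of cell sets were paired within libraries through the library block. The share of all members among T cells lay within its interval in all 4 libraries with at least 2 Cd3 UMIs, at least 2 UMIs of Trdc and Zbtb16, a 5% mitochondrial limit or doublets removed. At the 5% limit, however, Trdc cells of P-HC24 fell from 27 to 8, from 2.68 to 1.39%. Thinned to 2000 UMIs it was 3.00, 3.25, 4.39 and 2.97%, and of all cells past the limits members were 0.836, 0.738, 1.15 and 0.735%. Without macrophage-marked cells the share fell to 3.57% in P-HC24 and 3.48% in I-HC32. Leaving out each library in turn gave 631 to 1336 calls for Trdc against Zbtb16 cells, 822 to 1912 against CD8, 814 to 1754 against CD4 and 1050 to 1428 against NK cells. With no library block the calls were 802, 1008 and 734 for the comparisons with Zbtb16 cells, CD8 and CD4 T cells, and without marked cells 135, 577 and 700. With Trdc cells alone they were 234 against CD8 and 542 against CD4 T cells. For Prog, the genes past the fold numbered 133 with at least 200 UMIs (18.2% of those counted) and 647 at 1.5-fold (39.2%). They numbered 25 in Trdc cells (5.01%), 127 in Zbtb16 cells (14.6%) and 49 without marked cells (6.09%). In the same order Int had 300 (29.0%), 1043 (46.5%), 20 (2.65%), 305 (34.3%) and 34 (2.65%). Of the named genes, Il2rb against CD8 T cells turned to 0.62 without marked cells and 0.72 in Trdc cells. The settings differ in which cells and genes enter, and other causes were not tested.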
